A study of Mus musculus with 6 samples.

Results

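In Hi-C, DNA ends that lay close together in fixed nuclei are joined and counted as contacts, and the pairs described here lie 2 to 9.5 Mb apart on one mouse autosome. The contact counts of 50 kb bins were summed into bins of 500 kb, and a pair of bins was a member if the starts of its bins differed by 2000000 to 9500000 bp and its mean count over the 6 libraries was 10 or more. There were 67848 members, which is 93.0% of the 72939 pairs in this distance range with a contact, out of 636015 autosomal pairs of different 500 kb bins. The lowest mean count of a member was 10 and the highest of a pair outside was 9.83. Just inside the limit, 1384 members had a mean count under 11, and just outside it 1212 pairs had a mean count of 9 or more.

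The cells were mouse embryonic stem cells of strain 129. The 3 libraries labelled WT came from cells given as wild type, and the 3 labelled Del8 from cells with the genotype GFP-CTCF-Del8, in which CTCF lacks zinc finger 8. The series' design text describes lines that express GFP-CTCF or the mutant protein and speaks of biological replicates. These sources leave unsettled whether WT cells bear the tag and how many clones stand behind each group. Expression was not measured here, so the cell type rests on the labels. The series is about how long CTCF stays on chromatin and how that bears on genome folding. The question asked here is how contact over these distances compared between the groups.

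CTCF recognises a DNA motif through its zinc fingers and, by stopping the loop-extruding cohesin complex, marks the borders of chromatin domains. Most domains of mouse cells are smaller than the distances described here, so such contacts tend to reach across domain borders. The median number of borders found between the bins was 3 for tested members and 2 for those that rose and for those that fell. The called members were also nearer pairs, with a median distance of 2.5 Mb for rises and 3 Mb for falls, against 5.5 Mb for tested members. These border counts are therefore not compared at equal distance. At this scale chromatin also sorts into compartment A, which is gene-rich and open, and compartment B, which is gene-poor and compact, with more contact within a compartment than between them.

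Contacts were read at MboI sites, whose sequence is GATC, and so a stretch without that site has no ligation end of its own. To show what the bins hold, the promoters of 4 genes from the bins and blocks with the most changed pairs are given below from RefSeq (mm10 assembly GRCm38.p6, plus strand, 250 bases before to 50 after the start). Capitals mark GATC.
Mtor, chr4:148448332-148448631: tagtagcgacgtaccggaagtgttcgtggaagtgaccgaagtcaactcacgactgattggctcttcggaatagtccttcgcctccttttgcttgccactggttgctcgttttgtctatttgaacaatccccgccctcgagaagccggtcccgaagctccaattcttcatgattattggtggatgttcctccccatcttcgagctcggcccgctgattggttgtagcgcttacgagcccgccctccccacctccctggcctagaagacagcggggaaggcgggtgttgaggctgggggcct
Tbx4, chr11:85896515-85896814: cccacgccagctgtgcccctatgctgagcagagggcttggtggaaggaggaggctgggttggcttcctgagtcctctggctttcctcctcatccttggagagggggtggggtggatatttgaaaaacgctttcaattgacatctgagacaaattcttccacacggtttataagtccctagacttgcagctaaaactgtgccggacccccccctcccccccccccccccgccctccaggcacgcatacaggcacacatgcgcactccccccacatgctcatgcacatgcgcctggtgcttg
Gse1, chr8:120488616-120488915: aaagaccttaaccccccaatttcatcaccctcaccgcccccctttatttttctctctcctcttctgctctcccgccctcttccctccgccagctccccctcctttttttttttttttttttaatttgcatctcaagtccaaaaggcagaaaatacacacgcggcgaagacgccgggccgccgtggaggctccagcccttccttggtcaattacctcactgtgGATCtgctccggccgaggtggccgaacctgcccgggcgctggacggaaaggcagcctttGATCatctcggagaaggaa
Jarid2, chr13:44730524-44730823: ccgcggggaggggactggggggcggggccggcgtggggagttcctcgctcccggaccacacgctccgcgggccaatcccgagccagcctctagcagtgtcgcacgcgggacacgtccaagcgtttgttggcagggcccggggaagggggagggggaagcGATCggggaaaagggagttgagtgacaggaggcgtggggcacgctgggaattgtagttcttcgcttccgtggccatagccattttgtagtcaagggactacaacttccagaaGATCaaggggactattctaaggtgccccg

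The Gse1 and Jarid2 promoters shown held 2 GATC sites each, and those of Mtor and Tbx4 held 0. There were 3 starts for Gse1 and 2 for Jarid2, and the first by coordinate is shown. Of 32851 promoters of this length in the table, 48% held the site. Each window is far smaller than the 500 kb bin around it, so these letters do not describe the bin.

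The libraries held 24038030 to 66266759 contacts, and WT replicates 1 and 2 stood apart from the others. Of 47875 autosomal bins of 50 kb, 37.7% and 38.0% were short of contacts in these, while WT replicate 3 lacked 0.0752% and Del8 replicates 1 to 3 lacked 0.0355%, 0.0648% and 9.31%. As a result 12011 members had 0 contacts in WT replicate 1 and 12886 for WT replicate 2. Results were therefore taken from the 27835 bins (58.1%) that were well covered in all 6 libraries, which left 34338 members (50.6%) with a mean count of 10 or more to test. A further 23912 members had no well-covered pair of 50 kb bins, and the rest fell under the count limit. The members tested came from all 19 autosomes, with 1009 on chromosome 16 and 3462 on chromosome 8 at the ends of the range. Their median count was 32 to 68 contacts per library. Values without WT replicates 1 and 2 rest on 1 WT library.

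Contact fell faster with distance in the Del8 libraries. The slope of log10 contact on log10 distance from 2 to 9.5 Mb was -0.944, -0.935 and -0.907 for WT (replicates 1 to 3, the order used throughout) and -1.08, -1.06 and -1.08 for Del8. Every Del8 library was thus steeper than every WT library, with means of -0.929 ± 0.0194 and -1.08 ± 0.0112 (SD, n = 3 each). The two-sided exact permutation test gave p = 0.10, the smallest that 3 against 3 libraries allow. Over the 4 values per library compared in this way (slope, share, compartment and boundary values), the adjusted p was 0.133. The groups did not overlap on any of the 19 chromosomes either, where the Del8 slope was lower by 0.108 to 0.189, and these chromosomes come from the same libraries. Without WT replicates 1 and 2 the difference in slope was -0.168, against -0.147 with all libraries. The curve was steeper in Del8 in its near and its far section. From 2 to 4 Mb the mean slope was -1.25 for WT and -1.46 for Del8, and from 5 to 9.5 Mb it was -0.66 and -0.77, with no overlap of the groups in either section.

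The curves crossed near 3 Mb. At 2 Mb, the pairs made up 3.04%, 3.05% and 3.13% of the contacts between different 500 kb bins in WT and 3.31%, 3.33% and 3.31% for Del8, so every Del8 library was higher. From 2.5 to 3.5 Mb the groups overlapped. At each of the 12 distances from 4 to 9.5 Mb every Del8 library was lower than every WT library. At 9.5 Mb the share was 0.542%, 0.547% and 0.591% for WT and 0.466%, 0.486% and 0.462% for Del8. In contacts per pair of 50 kb bins and per 1000000 contacts, the ratio of Del8 to WT went from 1.08 at 2 Mb to 0.842 at 9.5 Mb. After adjustment over the 16 distances the lowest p of the exact permutation test was 0.123.

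**Figure D1:**
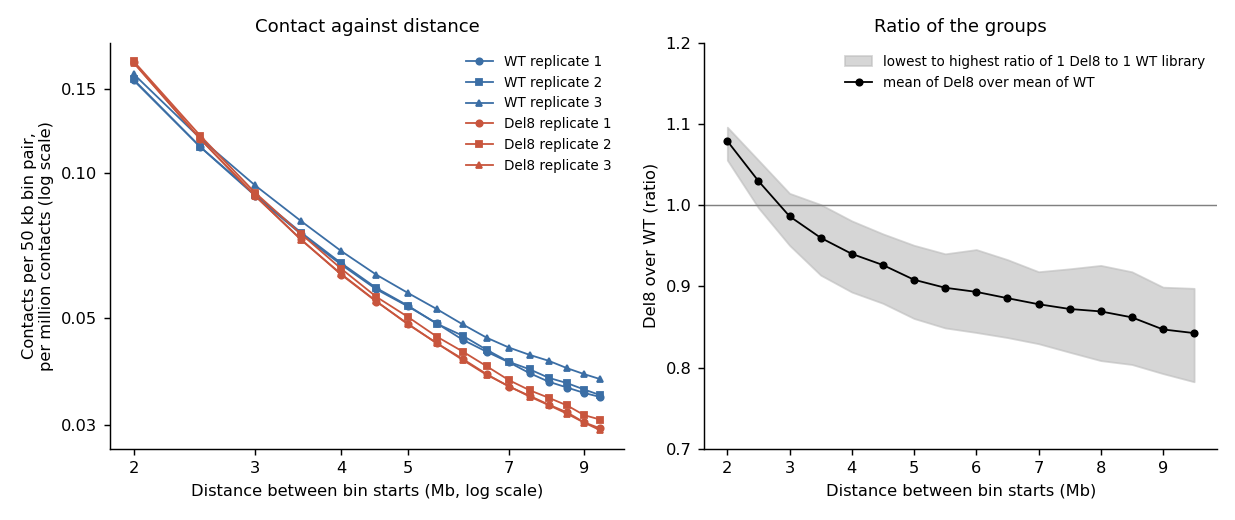
Left, contacts per pair of 50 kb bins and per 1000000 contacts (log scale) against the distance between bin starts in Mb (log scale), 1 line per library. Right, the mean of the 3 Del8 libraries over the mean of the 3 WT libraries, with a band from the lowest to the highest ratio of 1 Del8 to 1 WT library. The ratio is 1.08 at 2 Mb, crosses 1 between 2.5 and 3 Mb and is 0.842 at 9.5 Mb.

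Taken as one range, contacts at 2 to 9.5 Mb made up 17.2%, 17.3% and 18.2% of contacts between different 500 kb bins in WT and 16.7%, 17.1% and 16.7% for Del8. The Del8 values were all lower, with means of 17.6% ± 0.582 and 16.8% ± 0.224 (SD, n = 3 each; exact permutation p = 0.10). Without WT replicates 1 and 2 the difference was -1.44 percentage points, against -0.770 with all libraries, and without WT replicate 3 it was -0.436. This difference was small beside those of the ranges on either side. The share at 0.5 to 1.5 Mb was 55.2% ± 2.34 for WT and 59.7% ± 0.853 for Del8, and the share at 10 Mb or more was 27.3% ± 1.76 and 23.6% ± 0.630 (SD, n = 3 each). Shares of one total are not independent, since one rises where another falls. The difference at 2 to 9.5 Mb was also the less stable one: the groups overlapped with all 50 kb bins, after iterative correction, and when the total was the contacts between different 50 kb bins. The slope kept the groups apart with all 50 kb bins and after iterative correction.

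Once the distance curve of each library and chromosome was taken out, single pairs changed in both directions. By edgeR's quasi-likelihood test with Benjamini-Hochberg adjustment over all 152246 pairs tested, 461 members rose in Del8 (1.34% of the 34338 tested) and 468 fell (1.36%). Over all distances, 1.46% of the tested pairs rose and 1.5% fell, so the members were close to this background. The called share was larger among nearer pairs, where 15.3% rose and 14.8% fell at 0.5 to 1.5 Mb, and smaller among farther ones, where 0.304% rose and 0.387% fell at 10 Mb or more. The median fold change was 1.48 among the members that rose and 0.720 among those that fell. All 3 Del8 libraries lay above all 3 WT libraries in 3343 members (9.74%) and below them in 3012 (8.77%). These 2 shares were not taken over all tested pairs, so they are not read as particular to these distances.

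The counts depended on which bins and libraries entered. With all 50 kb bins, 0 of 67848 members passed edgeR's test, and 6436 had an unadjusted p under 0.05, against 4862 of 34338 in the well-covered bins. Without WT replicates 1 and 2, 206 members rose and 204 fell, and of the members called with all libraries 145 and 158 were still called, each in its direction. Without Del8 replicate 1, 263 rose and 289 fell. With DESeq2 121 rose and 144 fell. Scaling whole libraries by TMM, with no term for distance, gave 1549 that rose and 348 that fell and moved the median log2 fold change of members from 0.01 to 0.05. Directions below are therefore relative to pairs of the same chromosome and distance.

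Within the range the called share dropped with distance. At 2 Mb, 156 of 2816 members rose (5.54%) and 124 fell (4.40%). At 9.5 Mb, 6 of 1759 rose (0.341%) and 11 fell (0.625%). The median count of a pair dropped over the same range from 134.5 to 30.2 contacts, and its part in the called share was not tested. In 3 classes of distance, 3.46% rose and 3.24% fell at 2 to 3 Mb, 0.98% and 0.971% at 3.5 to 5.5 Mb, and 0.493% and 0.658% at 6 to 9.5 Mb. The shares in these classes without WT replicates 1 and 2 were 1.65% and 1.49%, 0.324% and 0.405%, and 0.250% and 0.263%.

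The makeup by compartment was not the same in the called and the tested members. Of the tested members with a compartment for both bins, 28.1% joined A with A, 28.2% B with B, and 43.7% A with B. Of those that fell, 54.6% were A-A and 23.6% A-B. Of those that rose, 33.9% were A-A and 48.2% A-B. Counted per class, 250 of 8878 A-A members fell (2.82%) and 154 rose (1.73%), while 108 of 13824 A-B members fell (0.781%) and 219 rose (1.58%). B-B members were in between for falls, with 100 of 8927 (1.12%), and 81 rose (0.907%). With WT replicates 1 and 2 left out, 126 A-A members fell (1.42%) and 63 rose (0.710%), 46 A-B members fell (0.333%) and 85 rose (0.615%), and 30 B-B members fell (0.336%) and 51 rose (0.571%). B-B falls were then near the A-B share. The median log2 fold change was -0.01 in A-A, -0.01 in B-B and 0.04 in A-B. These are counts of pairs that share bins, given without a test. A-A pairs were also better counted. Among members with a well-covered pair of 50 kb bins, 8892 A-A members held 5476192 contacts. The 14324 A-B members held 4485701, and the 9285 B-B members held 3093979. The part of these contact counts in the called shares was not tested.

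**Figure D2:**
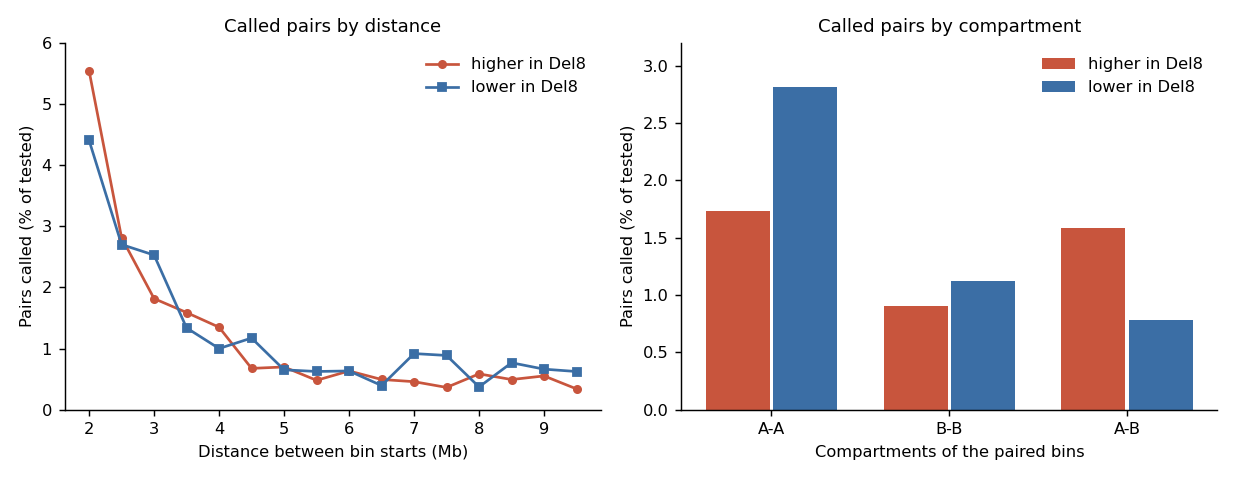
Left, the percent of tested members called higher or lower in Del8 by edgeR at each distance between bin starts (Mb). Right, the same percent by the compartments of the paired bins, bars from 0. The share called higher goes from 5.54% at 2 Mb to 0.341% at 9.5 Mb, and 2.82% of A-A pairs are called lower against 0.781% of A-B pairs.

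Contact between like compartments was lower relative to unlike ones in Del8. The compartment of a bin came from pairs 10 Mb or more apart. Members' counts entered it only through the iterative correction of the summed map, which used contacts at all distances. By this measure 1449 bins were A (median 7 gene starts) and 1597 were B (median 2). The contact of A-A and B-B members over that of A-B members, each per pair of 50 kb bins and relative to the mean of its chromosome and distance, was 1.40, 1.42 and 1.40 for WT and 1.35, 1.34 and 1.34 for Del8. Every Del8 library was lower, with means of 1.41 ± 0.0125 and 1.34 ± 0.00750 (SD, n = 3 each; exact permutation p = 0.10). Without WT replicates 1 and 2 the difference was -0.0538, against -0.0642 with all libraries. The groups did not overlap at 2 to 3, 3.5 to 5.5 or 6 to 9.5 Mb when these were taken one by one. Between bins at the outer ends of the eigenvector the ratio was 1.87 ± 0.0377 for WT and 1.74 ± 0.0184 for Del8 (SD, n = 3 each).

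In the well-covered bins the class whose values stood apart was A-B, where contact relative to the mean was 0.824, 0.818 and 0.829 for WT and 0.845, 0.851 and 0.849 for Del8. All Del8 libraries were higher. With all 50 kb bins this turned, with 1.23, 1.24 and 1.06 for WT and 1.05, 1.07 and 1.11 for Del8 and overlap. The groups were then apart in A-A contact, with 2.08, 2.20 and 1.75 for WT and 1.65, 1.67 and 1.72 for Del8. In both classes WT replicate 3 was nearer to the Del8 libraries than to WT replicates 1 and 2, which were short of contacts in many 50 kb bins. In the well-covered bins A-A contact was 1.25, 1.29 and 1.30 for WT and 1.25, 1.26 and 1.24 for Del8, and B-B contact was 1.03, 0.986 and 0.966 for WT and 0.986, 0.976 and 0.996 for Del8, and both classes overlapped. After iterative correction, which evens out the coverage of bins, the A-A values were 0.965, 0.965 and 0.973 for WT and 0.925, 0.931 and 0.924 for Del8, without overlap. The level of A-A contact thus lay above 1 in the raw counts and below 1 after correction, while that of B-B contact was 1.23 for WT and 1.24 for Del8 after correction.

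The ratio of like to unlike contact was lower in Del8 on 18 of 19 chromosomes, and on 15 of them the groups did not overlap. Chromosome 2 had the largest difference, from 1.71 ± 0.00769 for WT to 1.58 ± 0.0110 for Del8. Chromosome 11 followed, with 1.61 ± 0.0276 and 1.50 ± 0.0212, and chromosome 8, with 1.56 ± 0.0231 and 1.46 ± 0.0176 (SD, n = 3 each). Chromosomes 6, 16, 17 and 19 overlapped, and on chromosome 19 the means were 1.33 in both groups. The eigenvector followed gene starts to a different degree on each chromosome, with correlations across bins of 0.300 to 0.677.

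**Figure D3:**
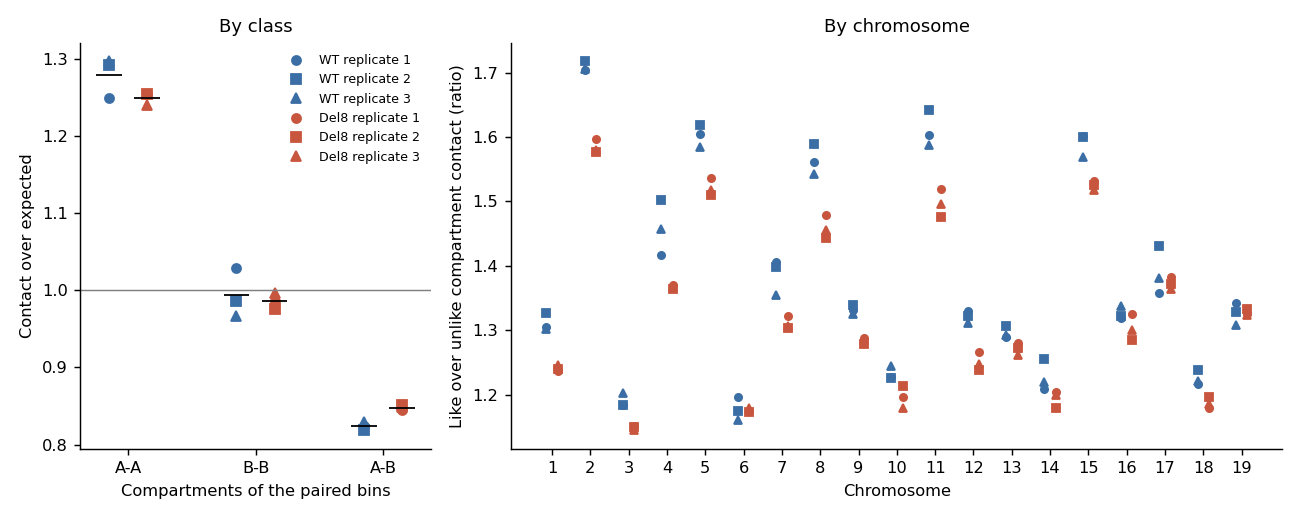
Left, contact over the mean of the chromosome and distance for members joining A with A, B with B and A with B, 1 point per library and a line at each group's mean. Right, the ratio of like to unlike compartment contact on each chromosome, 1 point per library in the same colours; neither axis starts at 0. The A-B values are 0.818 to 0.829 for WT and 0.845 to 0.851 for Del8, and the Del8 points lie below the WT points on 15 of 19 chromosomes.

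Gene density gave a like picture. Members with 6 or more protein-coding gene starts in both bins had a contact of 1.20, 1.24 and 1.23 relative to the mean in WT and 1.19, 1.19 and 1.18 for Del8, so every Del8 library was lower. Members with such a bin and a bin of at most 2 gene starts had 0.844, 0.842 and 0.853 for WT and 0.864, 0.873 and 0.868 for Del8, all higher. With all 50 kb bins this difference turned, with 1.13, 1.14 and 1.02 for WT and 1.01, 1.03 and 1.06 for Del8 and overlap. WT replicate 3 lay within the range of the Del8 libraries there. For members with at most 2 gene starts in both bins the groups overlapped, with 0.910 ± 0.0276 for WT and 0.924 ± 0.00646 for Del8 (SD, n = 3 each). After iterative correction they did not overlap, with 1.20 ± 0.0115 and 1.24 ± 0.00854 (SD, n = 3 each). Over the 3 classes the adjusted p of the exact permutation test was 0.15 to 0.5.

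Boundaries between the bins of a pair bore a weaker and less settled relation to the groups. At the 1237 boundaries found in the map summed over all libraries, contact across the site is low. Boundaries could be called only at well-covered 50 kb bins. Pairs with few boundaries may therefore include pairs with poorly covered stretches between their bins, which were not set apart. Members with many boundaries between their bins (median 5) had 0.893 ± 0.0188 of the contact of members at the same distance with few (median 1) for WT and 0.886 ± 0.00555 for Del8 (SD, n = 3 each), and the groups overlapped. The values were 0.872, 0.897 and 0.909 for WT and 0.883, 0.892 and 0.881 for Del8. WT replicate 1 was the lowest of all, and without it, or without WT replicates 1 and 2, the Del8 libraries were all lower. Without WT replicate 3 the Del8 mean was higher by 0.000832. At 6 to 9.5 Mb alone the ratio was 0.956, 0.990 and 1.00 for WT and 0.948, 0.952 and 0.948 for Del8, all lower. At 2 to 3 Mb the means were 0.835 and 0.853 with overlap.

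Among called members with 10 or more contacts in every library, the 10 largest rises and 10 largest falls are named by the genes of their bins. The called rises in this set had log2 fold changes of 1.02 to 1.13 and the falls of -1.26 to -0.96. A few of these 20 pairs were well counted, and 6 of them passed in every other fit except that with all 50 kb bins, where none of the 20 did. The 6 are described first, and 0 boundaries (Rnf144a with Dcdc2c) to 10 (Man1c1 with Prdm2) were found between their bins. For single pairs, bins, blocks and lists, a value relative to the mean is the count over a mean count. That mean is taken over all pairs of the library, chromosome and distance with a well-covered 50 kb bin on each side, tested or not. The value also scales with the number of well-covered 50 kb bins in a pair, so it compares libraries and not the strength of different pairs.

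The bin of the protocadherin alpha and beta genes, which code for adhesion proteins that give neurons their surface identity, had more contact with the bin of Nr3c1, the glucocorticoid receptor, 2 Mb away on chromosome 18 (37000001-37500000 and 39000001-39500000). The counts were 55, 56 and 85 for WT and 307, 193 and 190 for Del8. Relative to the mean of the chromosome and distance this is 0.803, 0.772 and 0.865 for WT and 1.79, 1.55 and 1.79 for Del8. Every Del8 library was higher than every WT library. The log2 fold change was 1.07 ± 0.13 (SE; adjusted p of 2.6e-11, edgeR).

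Contact also rose between the bins of Dgki, a diacylglycerol kinase, and Tbxas1, the thromboxane synthase, 2 Mb apart on chromosome 6 (36500001-37000000 and 38500001-39000000). The counts were 24, 29 and 35 for WT and 143, 89 and 100 for Del8, with a log2 fold change of 1.13 ± 0.19 (SE; edgeR adjusted p of 2.04e-06). Relative to the mean the values were 0.260, 0.299 and 0.259 for WT and 0.604, 0.508 and 0.684 for Del8. The groups did not overlap.

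A longer contact rose between the bins of Man1c1, a Golgi mannosidase, and Prdm2, a PR-domain zinc finger protein, 8.5 Mb apart on chromosome 4. The counts were 12, 20 and 21 for WT and 56, 59 and 41 for Del8. Relative to the mean they were 0.562, 0.835 and 0.615 against 1.24, 1.72 and 1.50 (log2 fold change 1.13 ± 0.25, SE; edgeR adjusted p of 0.00114). The last of the rises that passed in those fits joined Rasa3, a Ras GTPase-activating protein, with 4930467E23Rik, 6 Mb apart on chromosome 8, where the values relative to the mean were 0.784, 0.730 and 0.806 for WT and 1.69, 1.59 and 1.46 for Del8.

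Of the falls, the firmest joined Rnf144a, a ubiquitin ligase, with Dcdc2c, a doublecortin-domain gene, 2 Mb apart on chromosome 12 (26000001-26500000 and 28000001-28500000). The counts were 166, 145 and 209 for WT and 197, 141 and 107 for Del8. Relative to the mean the values were 1.85, 1.56 and 1.62 for WT and 0.895, 0.867 and 0.790 for Del8, with a log2 fold change of -0.96 ± 0.11 (SE; edgeR adjusted p of 2.69e-12). Every Del8 library was lower than every WT library, and both bins of the pair were in compartment B.

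The other joined Arhgef10l with Mtor, the kinase at the centre of growth control by nutrients, 7.5 Mb apart on chromosome 4 (140500001-141000000 and 148000001-148500000). The counts were 70, 91 and 132 for WT and 89, 67 and 41 for Del8. Relative to the mean the values were 3.05, 3.47 and 3.56 for WT and 1.85, 1.85 and 1.36 for Del8, lower in every Del8 library. The log2 fold change was -0.98 ± 0.16 (SE; edgeR adjusted p of 8.24e-07).

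The other 14 named pairs each lost the call in at least 1 further fit. The rises joined Lamc1 with Cop1 and Klf7 with Abca12 on chromosome 1, Uqcc1 with Gm826 on chromosome 2, Olfr466 with a cluster of zinc finger genes on chromosome 13, Crybg1 with Hace1 on chromosome 10, and a bin without a gene start with Lin52 on chromosome 12. The falls joined Nuf2 with Cd84, Pcmt1 with Stxbp5, Slc9a9 with Dzip1l, Sik2 with Thsd4, Cd6 with a bin without gene starts, and 3 further pairs with a bin without gene starts. Their counts were low, 10 to 27 contacts in the WT libraries for the rises and 10 to 44 over all libraries for the falls. The groups did not overlap in any of them, which is part of how a call arises and no further support.

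Most bins were in few called pairs. Tested members joined 3560 bins, with a median of 20 tested members per bin, and 8 bins had 5 or more members that rose and 11 had 5 or more that fell. The bin with the most rises held Tbx2 and Tbx4, T-box transcription factors of heart and limb development (chr11:85500001-86000000). Of its 28 tested members 11 rose, 0 fell, and all 28 had a log2 fold change above 0 (median 0.49). Its contact at 2 to 9.5 Mb relative to the mean was 1.13, 1.14 and 1.11 for WT and 1.54, 1.49 and 1.56 for Del8.

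The coverage of this bin, its summed contacts scaled to the library, moved with it. It was 1.03, 1.00 and 1.00 for WT and 1.34, 1.35 and 1.38 for Del8. In 50 kb bins the coverage was raised over chr11:85650001-86350000, where the Del8 over WT ratio of the well-covered bins was 1.39 to 1.56, and it was 1.00 in the bin just before and 1.11 in the bin just after. With offsets from the iteratively corrected map, 1 of the 11 rises was called, and without WT replicates 1 and 2, 4 were. Elsewhere, runs of 5 or more well-covered 50 kb bins raised by over 1.3 times in every Del8 library against every WT library were found at chr4:32450001-32900000 (median ratio 1.48) and chr10:58250001-58500000 (1.43), and no run was lowered in that way. The part of this coverage in the rises was not tested beyond the corrected offsets.

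The bin of Slc15a5, a solute carrier gene on chromosome 6, had 8 rises among 24 members, 4 of which were called with corrected offsets and 2 without WT replicates 1 and 2. The bins of Tenm4, a teneurin adhesion protein, on chromosome 7, of Nfatc2, a calcium-regulated transcription factor, on chromosome 2, and of Faf1, a Fas-associated factor, on chromosome 4 had 5 rises each. In these 3 bins all 5 were called with corrected offsets. Without WT replicates 1 and 2, 1, 2 and 1 of them were called. The Nfatc2 and Faf1 bins also had 2 and 1 members that fell.

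The bin with the most falls was that of Mtor (chr4:148000001-148500000, compartment A, 13 gene starts). Of its 27 tested members 10 fell and 0 rose, and the same 10 were called with corrected offsets and 6 of them without WT replicates 1 and 2. Its contact relative to the mean was 1.93, 2.03 and 1.97 for WT and 1.54, 1.52 and 1.44 for Del8, while its coverage was 1.39, 1.52 and 1.42 for WT and 1.44, 1.43 and 1.40 for Del8. The coverage groups overlapped. The named bins were chosen by their called members, which enter their contact values, so groups apart in contact add no support. The falls of the Mtor bin lay in stretches to either side, at partners 6 to 8 Mb before it and 3 to 5 Mb after it.

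The bin of Gse1 on chromosome 8 (120000001-120500000) had 7 falls among 31 members, and all 7 were called with corrected offsets and without WT replicates 1 and 2. Its contact relative to the mean was 2.52, 2.73 and 2.69 for WT and 2.28, 2.32 and 2.28 for Del8, against a coverage of 1.87, 2.20 and 2.12 for WT and 2.15, 2.13 and 2.09 for Del8, which overlapped. The bins of Camta1, a calmodulin-binding transcription activator, on chromosome 4 and of Il2rb, the beta chain of the interleukin-2 receptor, on chromosome 15 had 6 falls each, and that of Rpl21, a ribosomal protein gene, on chromosome 5 had 5. No member of these 3 bins rose. All of these falls were called with corrected offsets, but only 3, 2 and 2 without WT replicates 1 and 2.

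**Figure D4:**
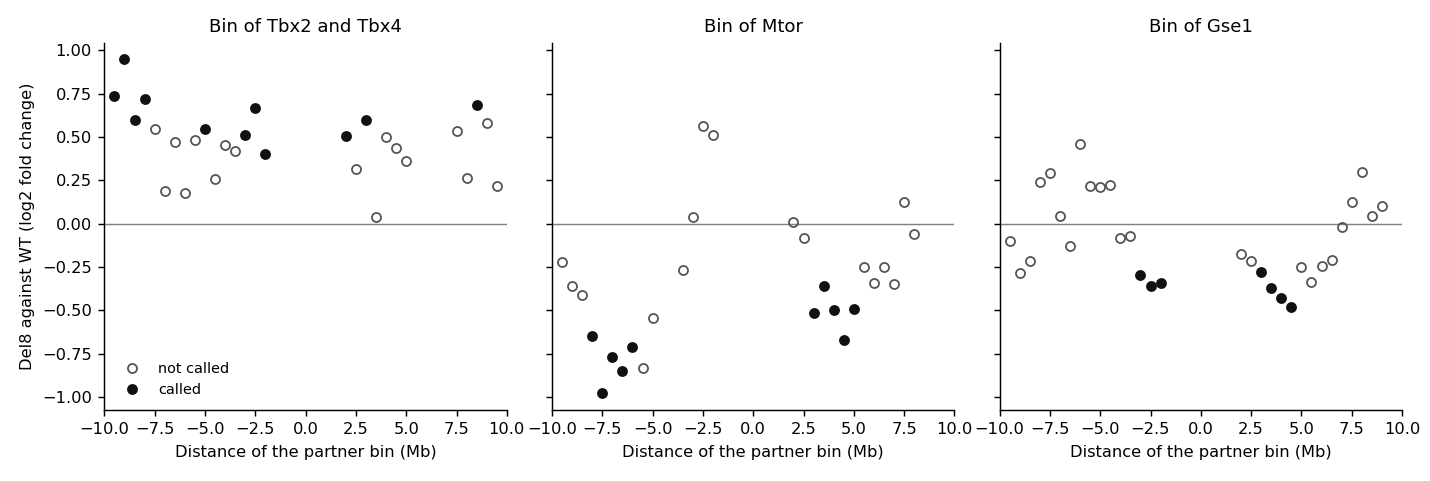
Log2 fold change of Del8 against WT (vertical axis) for the members of 3 bins against the distance of the partner bin in Mb, negative towards the chromosome's start; filled points are called by edgeR. All 28 points of the Tbx2 and Tbx4 bin lie above 0, and the 10 called points of the Mtor bin lie below 0 on both sides of it.

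Some called members touched each other on the map, while most groups were single pairs. The coordinates given for a block are the outer limits of its called pairs, and not every pair within them was called. Members that rose formed 291 groups of touching pairs, of which 215 were single pairs, and members that fell formed 288, of which 216 were single. The blocks below were chosen after their values were seen, as the 3 largest that rose and the 2 largest that fell, and their values describe them without a test.

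The largest block that fell held 16 pairs on chromosome 4 and joined 140000001-143000000 with 147500001-151500000. Its first side holds the bins of Igsf21, Arhgef10l, Spen, Fhad1 and Kazn, where Spen codes for a repressor that silences genes of the inactive X chromosome. Its second side holds those of Mtor, Casz1, Kif1b, Clstn1, Rere, Per3 and Camta1 and a cluster of zinc finger genes, where Per3 is a clock gene and Casz1 and Rere code for regulators of transcription. Of the 16 pairs 15 were A-A, and they lay 6 to 9.5 Mb apart. Contact over the mean was 2.52, 2.76 and 2.65 for WT and 1.56, 1.57 and 1.59 for Del8, lower in every Del8 library. All 16 pairs were called with corrected offsets, and 9 without WT replicates 1 and 2.

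The next largest block that fell was made of 12 A-A pairs on chromosome 8 and joined 119500001-121500000, with Gse1 and the forkhead genes Foxc2 and Foxf1, to 122500001-125000000, with Ankrd11 and Galnt2. Its contact over the mean was 3.61, 3.96 and 3.94 for WT and 2.95, 2.93 and 2.77 for Del8. All 12 pairs were called with corrected offsets, and 10 without WT replicates 1 and 2.

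The blocks that rose were more mixed in compartment. The block of 10 pairs on chromosome 13 was all A-A and joined 40500001-43000000, with Nedd9, Hivep1 and Phactr1, to 43500001-46000000, with Jarid2, a cofactor of Polycomb repressive complex 2, and Mylip and Atxn1. Its counts were 685, 673 and 977 for WT and 2462, 1872 and 1496 for Del8. Contact over the mean was 1.29, 1.23 and 1.28 for WT and 1.97, 2.04 and 1.96 for Del8, the largest relative rise of the 3 blocks.

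The other 2 lay on chromosome 8. A block of 12 pairs joined 13500001-16500000, with Rasa3, Dlgap2 and Csmd1, to 17500001-20000000, with Mcph1 and a beta-defensin gene, and 7 of its pairs were A-B. Its contact over the mean was 2.11, 2.21 and 2.19 for WT and 2.79, 2.67 and 2.78 for Del8. A block of 11 pairs joined 86500001-88500000, with Cbln1 and Zfp423, to 89000001-91500000, with Sall1, Tox3 and Fto, again with 7 A-B pairs. There the values were 1.41, 1.36 and 1.38 for WT and 1.90, 1.84 and 1.93 for Del8. All pairs of the 3 blocks that rose were called with corrected offsets, and 5 of each without WT replicates 1 and 2. Chromosome 8, with 89.0% of its 50 kb bins well covered, had the most tested members and the most called ones, with 67 that rose (1.94%) and 75 that fell (2.17%). By share it did not lead. On chromosome 12, 2.17% rose and 2.49% fell, on chromosome 6 2.12% rose, and on chromosome 4 2.51% fell.

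**Figure D5:**
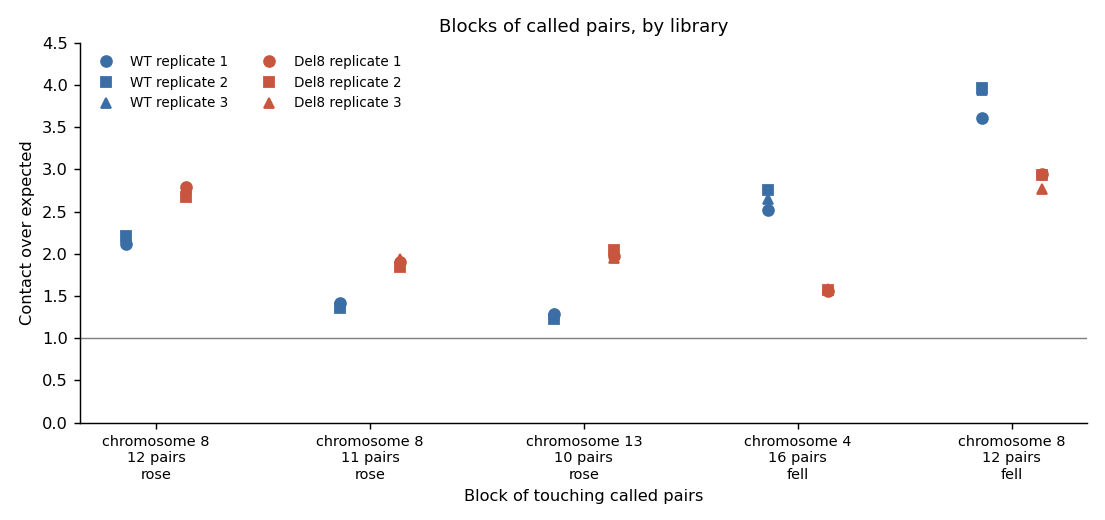
Contact over the mean of the chromosome and distance, from 0, for the 3 largest blocks of touching called pairs that rose and the 2 largest that fell, 1 point per library. In each of these blocks the WT and the Del8 points are apart, and the chromosome 4 block falls from 2.52 to 2.76 for WT to 1.56 to 1.59 for Del8.

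Genes bound by Polycomb complexes, which keep developmental regulators silent in embryonic stem cells, are known to meet over long distances in these cells. Of 142 such transcription factor genes, 22 members had a listed gene in both bins and 20 were tested. None rose and 2 fell, beside 1.34% and 1.36% of all tested members, a count too small to read as a share. The median log2 fold change was -0.14, with 7 of 20 above 0, beside a median of 0.01 over all tested members. Their summed contact over the mean was 1.60, 1.54 and 1.58 for WT and 1.46, 1.46 and 1.43 for Del8. The libraries of the groups do not overlap in this sum, which is given without a test.

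The 2 that fell joined Dlx3 and Dlx4, homeobox genes of jaw and tooth development, with Neurod2, a neuronal factor, on chromosome 11 and Lhx6 with Lhx2, LIM homeobox genes of the forebrain, on chromosome 2. The first had counts of 116, 128 and 189 for WT and 220, 163 and 127 for Del8, which relative to the mean is 2.07, 2.12 and 2.22 against 1.66, 1.64 and 1.59 (log2 fold change -0.39 ± 0.11, SE; edgeR adjusted p of 0.0288). The second had 1.27, 1.26 and 1.27 for WT and 0.967, 0.894 and 1.06 for Del8 (-0.39 ± 0.12, SE; edgeR adjusted p of 0.0418). Both calls were lost with DESeq2, with TMM scaling and without WT replicates 1 and 2.

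The other listed pairs at either end did not pass the test. Among them Dlx1 and Dlx2 with Neurod1 had a log2 fold change of -1.34 ± 0.44 (SE; edgeR adjusted p of 0.0741) on counts of 13, 15 and 12 for WT and 11, 8 and 3 for Del8. Dlx1 and Dlx2 with the Hoxd cluster, which patterns limbs and trunk, had 0.31 ± 0.14 (SE; adjusted p of 0.303), with values relative to the mean of 1.41, 1.25 and 1.40 for WT and 1.69, 1.70 and 1.64 for Del8. Meis1 with Otx1 and En2 with Msx1 had 0.42 and 0.37, and the Hoxd cluster with Neurod1 and Gata4 with Nkx2-6 had -0.47 and -0.36.

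Of 1857 tested members with a Polycomb gene in at least 1 bin, 39 rose (2.10%) and 26 fell (1.40%), beside 1.34% and 1.36% of all tested members. Of the 39 rises 11 were in the bin of Tbx2 and Tbx4, whose coverage was raised in Del8, and without that bin 28 of 1829 rose (1.53%), closer to the share of all tested members. Of the 1857, 17 rose and 15 fell without WT replicates 1 and 2. Pluripotency genes, the regulators that keep stem cells undifferentiated, gave 395 tested members with such a gene in 1 bin or both, of which 6 rose (1.52%) and 4 fell (1.01%), and 2 each way without WT replicates 1 and 2. Utf1 with Fgf4 was the one pair with such a gene in both bins, with 2.05, 2.75 and 2.49 relative to the mean in WT and 2.36, 2.48 and 2.66 for Del8 and overlap. By single genes, the bin of Pou5f1, the Oct4 factor, had 5 of 24 members above 0 (median log2 fold change -0.26, 1 fell), and the bin shared by Nanog and Dppa3 had 7 of 27 (median -0.09, 1 fell). The bin of Tfcp2l1 had 10 of 11 above 0 (median 0.15, 1 rose) and that of Lin28a 24 of 31 (median 0.11, 2 rose). The bin of Sox2 had 10 of 17 above 0 (median 0.05) and no call.

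With a listed gene in both bins, 60 tested pairs of olfactory receptor genes, 33 of ribosomal protein genes, 10 of vomeronasal receptor genes and 10 of zinc finger clusters were not called. The medians of their log2 fold changes were -0.05, -0.03, -0.04 and 0.02. In olfactory receptor pairs the summed count over the mean was 0.611, 0.602 and 0.594 for WT and 0.567, 0.546 and 0.567 for Del8. In ribosomal protein pairs it was 2.05, 2.18 and 2.08 for WT and 2.01, 2.07 and 2.04 for Del8. These values scale with the well-covered bins of a pair, so the levels of these lists are not compared. No protocadherin pair could be tested. With a listed gene in at least 1 bin, the shares are read beside the 1.34% that rose and 1.36% that fell over all tested members. Protocadherin members had the highest share of rises, with 5 of 98 (5.10%), and 2 fell (2.04%), and without WT replicates 1 and 2 these counts were 3 and 1. The rise with Nr3c1 described above belongs to this list. Of the 98 protocadherin members 45 had a log2 fold change above 0 (median -0.04), beside a median of 0.01 over all tested members. Of 293 members with an imprinted gene 7 fell (2.39%) and 2 rose (0.683%), and 6 and 0 did so without those libraries. For the other lists the share that rose was 0.204% to 1.32% and the share that fell 0.816% to 1.56%. These were 15 rises and 13 falls of 1580 for olfactory receptors, 1 and 4 of 490 for vomeronasal receptors, 9 and 6 of 680 for zinc finger clusters, 18 and 28 of 1794 for ribosomal proteins, and 2 and 3 of 239 for CTCF and cohesin genes. Leaving out WT replicates 1 and 2, they were 3 and 8, 0 and 3, 2 and 6, 8 and 18, and 0 and 0. These counts over lists are given without a test. In the bin of Gnas, an imprinted gene of G protein signalling, 22 of 24 members were above 0 (median 0.25) and none was called. This bin had the highest median of its list. Over all 293 members with an imprinted gene, 150 were above 0 (median 0.01), beside 17718 of all 34338 tested members (median 0.01).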

How the data were processed

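In-situ Hi-C was measured in 3 WT and 3 Del8 libraries. The authors deposited raw contact counts of 50 kb bin pairs. The build was mm10 (submitters' processing notes), and aligner and read filters were not given in the sources used here. Counts were summed into 500 kb bins. Depth was 24038030 to 66266759 contacts per library, and replicates differed by more than sampling noise (chi-square per degree of freedom 1.40 to 1.50 within groups, 1.96 to 2.36 between). A 50 kb bin was well covered if each library's scaled coverage reached 0.5 of the third largest value among the 6 and exceeded 0.1 of its own scale. Pairs were tested with edgeR 4.0.16 (quasi-likelihood; offsets: mean count per library, chromosome and distance; minimum mean count 10; adjusted p under 0.05) over all distances, and the standard error was derived from the F statistic. DESeq2 1.42.0 was an alternative. The fit was tested on simulated data. The difference between groups in a single value per library was assessed with a two-sided exact permutation test, which cannot go below p = 0.10. Groups and replicate numbers came from the titles. Where p-values are given they measure the spread between these libraries.

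Compartments came from the eigenvector of the correlation matrix of log2 contact over its distance mean, pairs 10 Mb or more apart, summed over libraries, taking the component of the first 3 that correlated best with gene starts. The choice of matrix was made with the maps in view, by the correlation with gene starts. Boundaries were minima of a 500 kb insulation score with a prominence of 0.2. A gene's start is its lower coordinate in a RefSeq table of the same assembly. Named pairs were the 10 largest rises and falls among called members with 10 or more contacts in every library, leaving out pairs within 1 Mb of one taken. Named bins were the 5 with the most rises and the 5 with the most falls, and a bin was named by its listed genes or else its longest gene. The members and lists were chosen with earlier results of these data known. The alternatives were other bins, scalings, count limits, class limits and libraries. Chromosome X was left out. One further block of called pairs is not reported here.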

Additional observations from a re-analysis of the deposited data

How the results depend on the processing

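With all 50 kb bins, 0 members rose, 0 fell, and 0 were called in each of the 9 gene lists. With TMM scaling 1549 rose, with DESeq2 121 rose and 144 fell, and without WT replicates 1 and 2 206 rose and 204 fell (added after the data were seen). Leaving out 1 library gave 263 to 378 that rose and 289 to 432 that fell. Iteratively corrected offsets raised the called pairs with CTCF or cohesin genes from 5 to 8. Over all members they gave 524 that rose and 550 that fell, against 461 and 468. The called pairs of every other list went up as well, as from 15 to 22 for zinc finger clusters. The replicate block gave 402 that rose and 413 that fell. The replicate numbers did not pair the libraries, since the deviations of same-numbered libraries correlated at 0.005098, -0.002223 and -0.005972. The share of contacts differed by -0.498, -0.405 and -0.574 percentage points, with overlap, for contacts between 50 kb bins, all bins and the corrected map. The boundary ratio differed by -0.0894 with all bins, -0.00966 with the corrected map and -0.0235 without WT replicates 1 and 2, without overlap, and by -0.0175 to 0.000832 when 1 library was left out. Gene-poor pairs differed by 0.0395, 0.0389 and 0.0365 in these 3 settings and by 0.00252 to 0.0292 with 1 library out. Gene-rich with gene-poor pairs differed by -0.0641 with all bins, and A-B pairs by -0.0997, and in both WT replicate 3 lay within the Del8 range. Of the named pairs, 3 turned with all bins: Nuf2 with Cd84 (log2 fold change 0.18), the fall on chromosome 13 (0.15) and that between bins without gene starts on chromosome 10 (0.048). The cause was not tested. The slope and the compartment ratio kept their direction and the groups stayed apart in every setting tried for them. Depth limits the far pairs most, with a median of 30.2 contacts at 9.5 Mb, so a pair that was not called there may still differ.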
